A study of Mus musculus with 2 samples.

Results

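The cells described here are bone-marrow progenitors that carried transcripts of Flt3, the gene of a cytokine receptor, and none of the early lymphoid gene Dntt or of 4 myeloid granule genes. They were chosen by raw counts of tagged molecules (UMIs) in each cell. A cell had at least 2 UMIs of Flt3, none of Dntt or Il7r, none of Mpo, Ctsg, Elane or Ms4a3, at most 1 over Hlf, Mecom, Procr and Mllt3, and at most 3 each of Car2 and Irf8. Of 7823 cells that passed the quality filter, 121 met every limit, 40 of 3253 in library 1 and 81 of 4570 in library 2. They are called Flt3-positive members below, and every value of a gene in the rule describes how they were picked.

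The study compared multipotent progenitors of C57BL/6 Spp1-/- mice, which lack the secreted protein osteopontin, with those of C57BL/6 wild-type mice. Both samples were taken 20 hours after thioglycollate was injected into the peritoneum, so no untreated group stands beside them. Bone-marrow cells were sorted as negative for lineage markers and positive for Sca-1, c-kit and CD34, with a Flt3 gate that the labels spell Flt3L+, and were run on the 10X Single Cell 3-prime platform. The sources used here did not give the number, sex or age of the mice. The counts came as 1 matrix of both libraries, and nothing used here ties library 1 or library 2 to a genotype. The libraries are therefore set side by side with no direction by genotype, and with 1 library per genotype no difference was tested.

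FLT3 is a receptor tyrosine kinase for FLT3 ligand. In mouse bone marrow its transcript appears as cells leave the stem-cell state, and cells with much of it, the lymphoid-primed multipotent progenitors, make lymphocytes, granulocytes, monocytes and dendritic cells while giving few platelets and red cells. Dntt, the DNA polymerase that adds bases at antigen-receptor joints, marks the first lymphoid step, whereas Mpo, Elane and Ctsg encode proteases and the peroxidase of neutrophil granules.

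The kept cells held 10118499 UMIs in library 1 and 18750468 in library 2, with medians of 2830 and 3836 UMIs per cell. In all, 32 barcode sequences occurred in both libraries, and none of them was a Flt3-positive member. Members had a median of 2742 UMIs per cell in library 1 (range 952 to 8226) and 3846 in library 2 (range 1457 to 8596). Levels are UMIs summed over a group and scaled to 1000000 UMIs (CPM). Intervals are exact 95% intervals, Poisson for levels and ratios and Clopper-Pearson for shares. They cover counting error only, not differences between animals or preparations.

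Flt3 (chromosome 5, 147330741 to 147400489, minus strand, GRCm38) was thinly counted. In library 1, 31 members had 2 UMIs, 8 had 3 and 1 had 4. In library 2, 72 members had 2 UMIs, 6 had 3 and 3 had 4. Most members thus lay at the limit itself, and 194 and 240 cells that met every other limit lay just outside it with 1 Flt3 UMI. A further 781 cells of library 1 and 664 of library 2 met every other limit with no Flt3 UMI and are called Flt3-zero cells. Over all kept cells Flt3 stood at 122 CPM in library 1 and 141 CPM in library 2.

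Most Flt3-positive cells failed another limit. Of 208 cells of library 1 with at least 2 Flt3 UMIs, 88 had no Dntt, and 53 of these also had no granule transcript. The stem-gene, Il7r, Car2 and Irf8 limits then took the number to 40. In library 2 the corresponding numbers were 573, 219, 121 and 81. With the number of UMIs per cell matched, 42.5% of 207 cells with at least 2 Flt3 UMIs had no Dntt in library 1, against 57.5% of 207 Flt3-zero kept cells, and in library 2 38.1% of 572 against 47.6% of 572. The granule limit went the other way, passed by 65.7% against 60.4% in library 1 and by 59.6% against 53.8% in library 2. These genes belong to the rule, so the shares describe the cells from which members were taken.

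The share of cells that were members hardly moved with sequencing depth. It was 1.38%, 1.11% and 1.20% in the lowest, middle and highest tertile of UMIs per cell of library 1, and 1.84%, 1.97% and 1.51% in library 2. Over all depths it was 1.23% (0.88 to 1.67) and 1.77% (1.41 to 2.20). The share of Flt3-zero cells was lower at greater depth, with 36.8%, 23.6% and 11.6% over the tertiles of library 1 and 25.9%, 12.9% and 4.86% in library 2. Flt3-zero cells were thus shallower as a group, and the comparisons below match UMIs per cell.

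Within the limits members still varied. Car2, a carbonic anhydrase of the erythroid and megakaryocyte branch, was at 0 in 14 of 40 members of library 1 and 26 of 81 of library 2, and 5 and 19 members were at its limit of 3 UMIs. Irf8, a regulator of monocytes and dendritic cells, was at 0 in 36 and 59 of them. No UMI of the 4 stem genes was counted in 32 and 61 members. One member of library 1 had 118 UMIs of MHC class II genes and their invariant chain Cd74, whereas the highest count in library 2 was 8.

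Lineage transcripts were present, so the cells are not free of them as their label has it. The rule allows up to 3 UMIs each of Car2 and Irf8, so their counts describe how members were picked. Car2 had a UMI in 26 of 40 members of library 1 (65.0%) and 55 of 81 of library 2 (67.9%). Over all kept cells it had one in 53.3% and 64.2%. Irf8 had a UMI in 4 and 22 members (10.0% and 27.2%), against 19.8% and 30.9% of all kept cells. Genes that the limits do not name were counted too. Prtn3 (chromosome 10, 79874476 to 79883174, plus strand, GRCm38), which encodes the neutrophil granule protease proteinase 3, had a UMI in 37 of 40 members of library 1 and 77 of 81 of library 2. It stood at 1300 CPM (1107 to 1516) and 1240 CPM (1122 to 1367) in members, close to the 1289 and 1285 CPM of all kept cells. Cells with at least 2 UMIs over the 4 granule genes of the rule had 2112 and 2066 CPM.

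Free RNA in the droplets can place UMIs in cells that do not make a transcript, and its part in Prtn3 was not tested. Prtn3 was also read in cells with at least 2 UMIs of Il7r, the lymphoid receptor chain. There it had 246 CPM (118 to 453) in 14 cells of library 1 and 440 CPM (352 to 544) in 46 cells of library 2. A UMI was seen in 92.5% and 95.1% of members, against 42.9% and 63.0% of the Il7r cells, whose median depths of 2537 and 3849 UMIs were like those of members. Members thus had more Prtn3 than Il7r cells in both libraries. Flt3-zero cells had 1186 and 1175 CPM, with a UMI in 86.8% and 89.0% of them, so the level is not particular to members.

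Plac8, expressed in lymphoid and myeloid progenitors alike, stood at 2030 CPM in members of library 1 and 2439 CPM in library 2, and was counted in all but 1 cell of each. It was higher in the Il7r cells, at 4949 and 3910 CPM. Lyz2, the lysozyme of macrophages and neutrophils, had 128 and 193 CPM, against 73.9 and 113 CPM in Il7r cells with overlapping intervals. The tetraspanin Cd63, found in granules and late endosomes, had 249 and 212 CPM, and in Il7r cells 0 UMIs in library 1 and 25.6 CPM in library 2. In cells with at least 2 UMIs over the 4 granule genes, Lyz2 had 134 and 127 CPM and Cd63 145 and 139 CPM. Tyrobp, a signalling adaptor of myeloid and NK cells, and the granule gene Cst7 were lower in members than in Il7r cells. Tyrobp had 80.2 and 61.4 against 148 and 179 CPM, and Cst7 72.2 and 166 against 271 and 338 CPM. Their intervals overlapped in library 1.

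**Figure D1:**
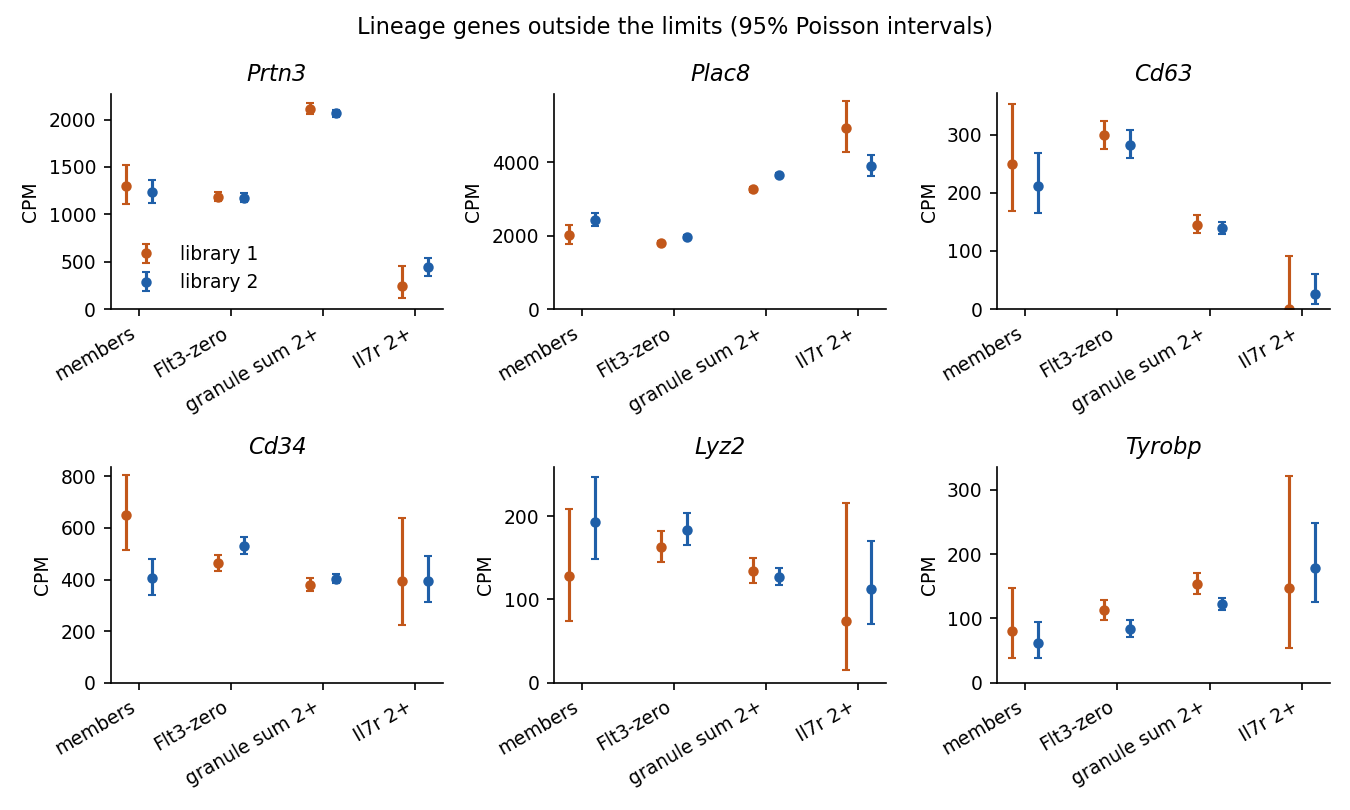
Level in CPM (vertical axes, from 0) of 6 genes outside the limits, in Flt3-positive members, Flt3-zero cells, cells with at least 2 UMIs of Mpo, Ctsg, Elane and Ms4a3 together, and cells with at least 2 UMIs of Il7r; points are sums over cells, bars are 95% Poisson intervals. Prtn3 stood at 1300 and 1240 CPM in members, between the 2112 and 2066 CPM of granule cells and the 246 and 440 CPM of Il7r cells.

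Several defining genes of mature and committed cells had no UMI in members, while other genes of the same lists were counted. Of 13 B-lineage genes 3 had a UMI in any member, and Ebf1, Pax5 and Cd79a had none. Of 22 genes of T, NK and innate lymphoid cells 9 had one, and Cd3e and Tcf7 had none. That list summed to 377 and 448 CPM in members, against 412 and 445 CPM in all kept cells, and most of it was Nkg7, a cytotoxic granule protein, at 273 and 322 CPM. The dendritic and MHC class II list summed to 1757 and 948 CPM, against 1540 and 966 CPM in all kept cells. Ly6d and Rag1, marks of lymphoid commitment, had no UMI in 121 members. Over all kept cells Ly6d stood at 33.8 and 27.4 CPM, with a UMI in 2.52% and 2.67% of cells. Among Flt3-zero cells 5 of 781 and 2 of 664 had a Ly6d UMI, so its absence is not particular to members. The erythroid regulators Gata1 and Klf1 and the erythropoietin receptor Epor, the neutrophil genes S100a8 and S100a9, the mast-cell protease Cpa3, and the dendritic genes Itgax and Siglech were at 0 in members too. Of 31 megakaryocyte and erythroid genes 17 had a UMI, at a summed 369 and 313 CPM, against 376 and 321 CPM in all kept cells. On the same measure, the B-lineage list had 40.1 and 61.4 against 49.8 and 56.7 CPM. The list of mature neutrophil and monocyte genes had 40.1 and 52.2 against 91.9 and 116 CPM. That of mast cells, basophils and eosinophils had 48.1 and 9.20 against 21.4 and 20.7 CPM. For Gata1, 0 UMIs allowed up to 29.6 CPM in library 1 and 11.3 CPM in library 2. Over all kept cells Gata1 had 1 and 2 UMIs, Rag1 5 and 7, Cpa3 2 and 11, and Cd79a 0 and 2. Zeros of these genes thus do not set members apart.

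Among regulators of Flt3 and of lymphoid and myeloid potential, 32 of 35 were counted in members, at a summed 1958 and 1820 CPM. Mef2c, a transcription factor of lymphoid and myeloid progenitors, had 209 and 239 CPM, the E protein gene Tcf4 201 and 101 CPM, and the homeobox gene Hoxa9 104 and 76.7 CPM. Spi1, which encodes PU.1, rested on 3 and 6 UMIs. Flt3l, the ligand gene, had none in library 1 and 2 UMIs in library 2. Of 34 genes for the ligand, adaptors and signalling of FLT3, 30 had a UMI, and only Pik3r1, a regulatory subunit of phosphoinositide 3-kinase, reached 50 UMIs over both groups of both libraries.

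Members were then set against Flt3-zero cells that met the same limits, which asks what else went with Flt3. Cells were drawn 1 to 1 within bins of UMIs per cell, giving 39 members and 39 Flt3-zero cells in library 1 and 73 and 73 in library 2, with 1 and 8 members left out for want of a partner. Median depths were 2682 against 2771 UMIs in library 1 and 3569 against 3555 UMIs in library 2.

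Hardly any gene separated members from Flt3-zero cells in both libraries. Of 2045 genes with at least 50 UMIs over the 4 sums, 11 (0.538%) were at least 1.5-fold higher in members in both libraries and 13 (0.636%) at least 1.5-fold lower. In library 1 alone 11.8% were higher and 15.4% lower, and in library 2 alone 4.5% and 5.87%. TMM scaling gave 14 higher and 11 lower in both, and totals without ribosomal protein genes 15 and 11. None of these genes kept that size in both libraries when all Flt3-zero cells were used and weighted to the depths of members. Across genes the log2 ratios of the libraries had a Pearson r of -0.02 (n = 2045 genes), and 1044 of them had the same sign. Among the 162 genes with at least 200 UMIs in each library r was 0.29, with 98 of the same sign. Genes of 1 library share its cells, so these values are descriptions.

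Cd37, a tetraspanin of lymphoid and myeloid cells, was 1 of the 11 higher genes. It had 172 CPM in members and 104 CPM in Flt3-zero cells of library 1, and 189 against 106 CPM in library 2, log2 ratios of 0.73 (-0.38 to 1.89) and 0.84 (0.15 to 1.56). With weighting these became 0.21 and 0.19. Cenpa, the centromeric histone, had 120 against 26.0 CPM and 189 against 106 CPM. Ap2m1, a subunit of the clathrin adaptor, had 129 against 77.9 CPM and 155 against 79.3 CPM. Of the 13 lower genes, the chaperone gene Hspa14 had 60.1 against 121 CPM and 83.3 against 170 CPM, and the spermine synthase gene Sms 42.9 against 121 CPM and 60.6 against 132 CPM.

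The genes that stood highest or lowest in library 2 were also read in library 1, which had no part in choosing them. Of the 12 highest, 4 were also higher in library 1, and their median log2 ratio was -0.24 there, against 0.97 in library 2. Of the 12 lowest, 7 were also lower, with medians of -0.15 and -1.13. The lysozyme gene Lyz2 was among the highest in library 2 at 0.95 (0.28 to 1.65) and stood at -0.73 (-1.80 to 0.29) in library 1. Hbb-bt, a beta-globin gene, was the lowest in library 2 at -2.47 (-3.88 to -1.30) and stood at -0.46 in library 1. Isg15, an interferon-induced modifier, had 1.39 in library 2 and -0.54 in library 1.

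**Figure D2:**
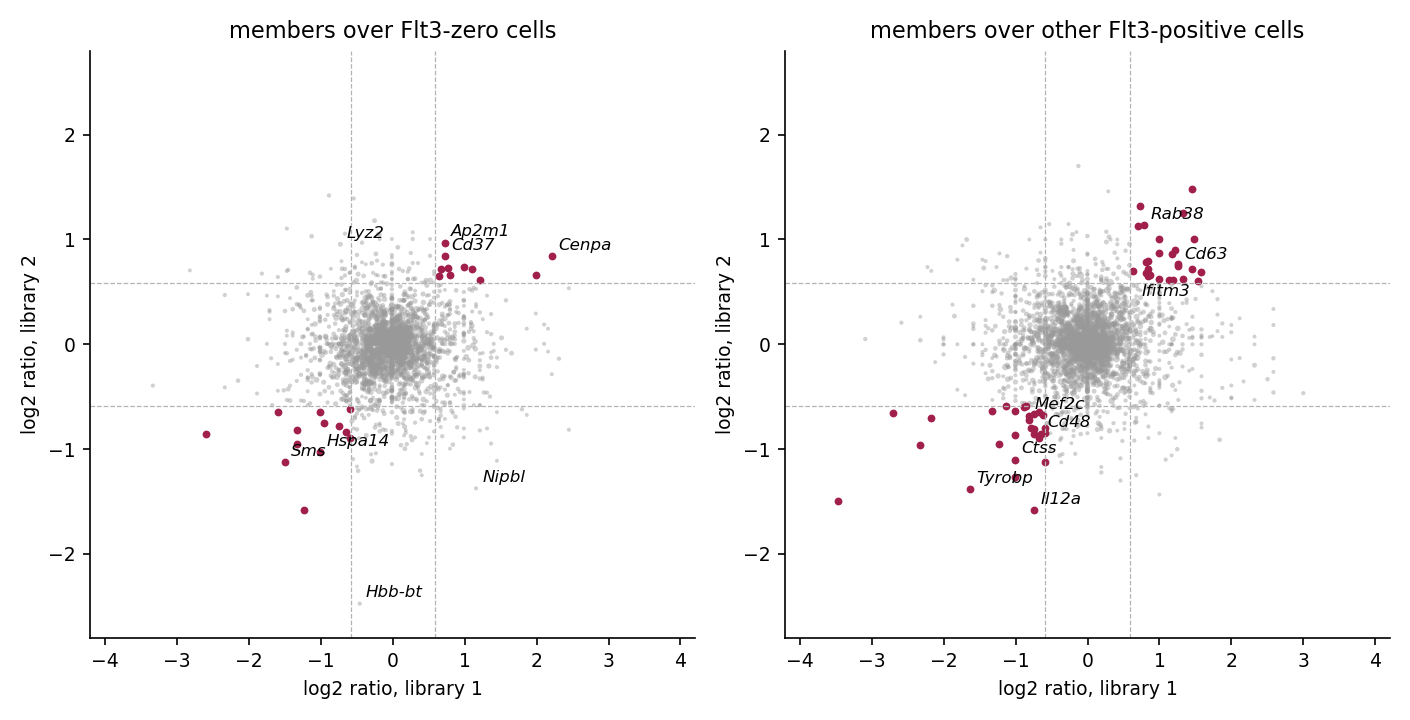
Log2 ratio per gene in library 1 (horizontal axis) and library 2 (vertical axis), members over Flt3-zero cells at left and over other Flt3-positive cells at right; each point is a gene outside the rule, coloured where the ratio was at least 1.5-fold the same way in both libraries, and dashed lines mark 1.5-fold. The left cloud is centred on 0 with r = -0.02 across 2045 genes, and Tyrobp, Cd48 and Cd63 lie in the coloured corners at right.

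Lymphoid-primed genes lay slightly above Flt3-zero cells in library 1, while in library 2 the interval of their ratio included 0. Their summed level was 4896 CPM in members and 4283 CPM in Flt3-zero cells of library 1, a log2 ratio of 0.19 (0.02 to 0.37), and 4814 against 4561 CPM in library 2, 0.08 (-0.04 to 0.19). Of 15 measured genes 3 were at least 1.5-fold higher and 2 lower in library 1, and 1 and 0 in library 2. The median log2 ratio of the 15 was 0.16 and 0.11, beside -0.01 and -0.03 over all genes. With weighting the summed ratios were 0.23 and 0.03. Ramp1, a subunit of receptors for calcitonin gene-related peptide, had 910 against 770 CPM and 894 against 763 CPM. Coro1a, an actin regulator of blood cells, had 979 against 839 CPM and 928 against 974 CPM. Emb, an adhesion protein, had 464 against 441 CPM and 526 against 487 CPM.

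Cd48, which encodes a surface protein absent from long-term stem cells, was lower in members in both libraries. It had 137 CPM in members and 225 CPM in Flt3-zero cells of library 1, on 16 against 26 UMIs. In library 2 it had 129 against 185 CPM, on 34 against 49 UMIs. Cd48 was not among the 13 genes at least 1.5-fold lower in both libraries. A Cd48 UMI was seen in 11 of 39 members and 18 of 39 Flt3-zero cells of library 1, and in 27 of 73 and 30 of 73 in library 2. Cd27, another surface protein of multipotent progenitors, had 215 against 199 CPM and 284 against 291 CPM.

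Stem-cell genes outside the rule stood at 6073 CPM in members and 6195 CPM in Flt3-zero cells of library 1, -0.03 (-0.18 to 0.12), and at 5382 against 6397 CPM in library 2, -0.25 (-0.35 to -0.15). Ifitm1 and Ifitm3, membrane proteins that restrict viruses and are abundant in stem cells, made up most of these counts. Ifitm1 had 2783 against 3193 CPM and 2557 against 3043 CPM, and Ifitm3 1821 against 1912 CPM and 1587 against 2009 CPM. Meis1, the homeobox partner of Hox proteins, had 120 against 26.0 CPM in library 1 and 68.2 against 83.1 CPM in library 2, so its directions differed. The median over 8 measured stem genes was 0.33 in library 1, opposite in sign to the sum, and -0.28 in library 2.

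Myeloid genes outside the rule were alike in sum, with log2 ratios of -0.02 (-0.16 to 0.12) and 0.09 (-0.00 to 0.19). Prtn3 had 1340 against 1229 CPM in library 1 and 1212 against 1363 CPM in library 2. Cd63 had 241 against 363 CPM and 212 against 306 CPM. Megakaryocyte and erythroid genes summed to 378 against 467 CPM in library 1 and 307 against 480 CPM in library 2, log2 ratios of -0.31 (-0.91 to 0.30) and -0.64 (-1.06 to -0.23). In library 2 another draw of Flt3-zero cells turned this to 0.11. Interferon-response genes, S-phase genes and MHC class I genes had log2 ratios between -0.09 and -0.00 in both libraries.

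The dendritic and MHC class II list turned on 2 cells of library 1. Its log2 ratio was -0.74 (-0.99 to -0.49) there, with 1 drawn Flt3-zero cell holding 109 of 124 Cd74 UMIs and 1 member holding 47 of 60. With all Flt3-zero cells weighted by depth it was -0.03, and another draw gave 0.31. In library 2, where no drawn cell had at least 20 MHC class II UMIs, it was 0.15 (-0.11 to 0.41).

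**Figure D3:**
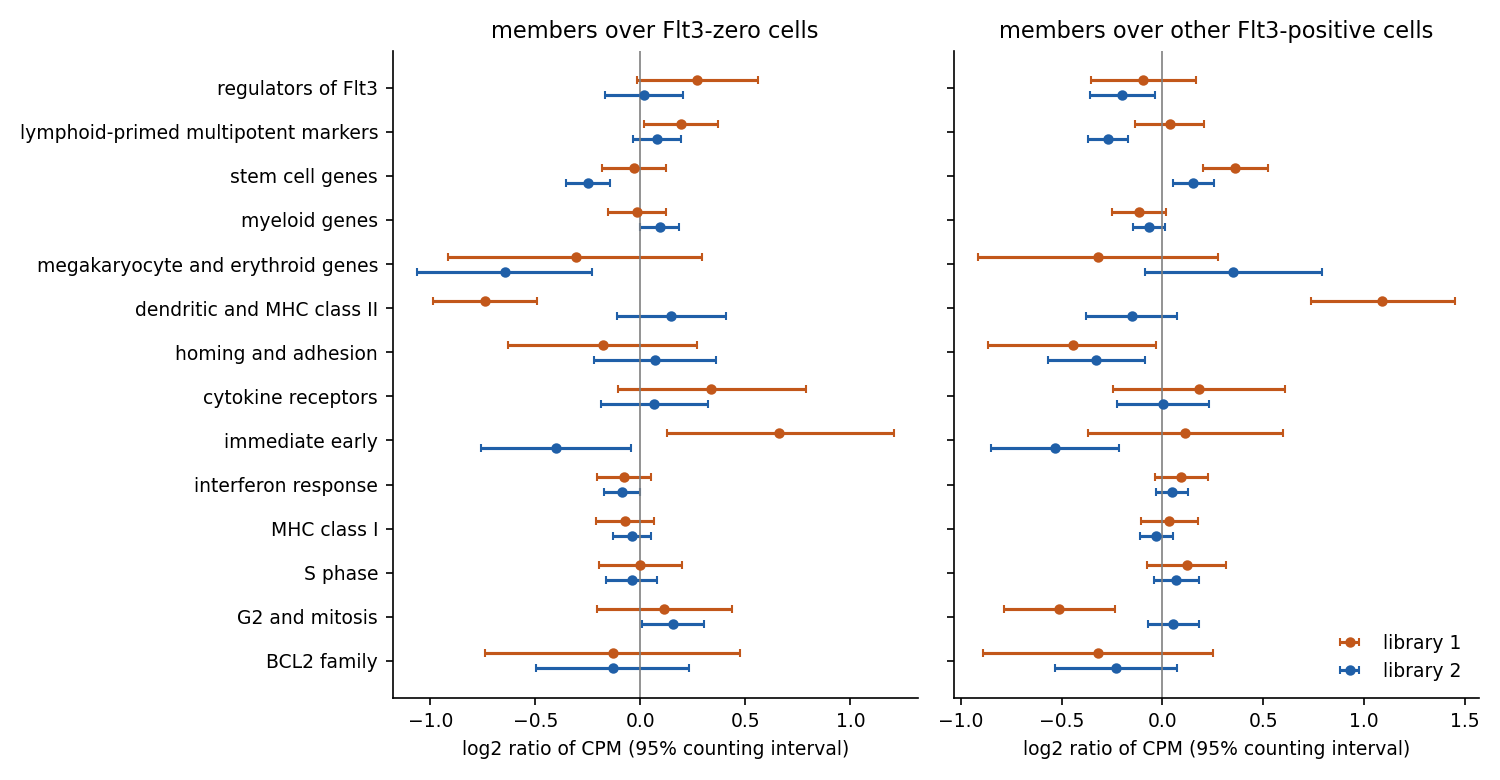
Log2 ratio of summed CPM (horizontal axes) for 14 gene lists, members over Flt3-zero cells at left and over other Flt3-positive cells at right, by library, with 95% counting intervals. Lymphoid-primed genes lie at 0.19 and 0.08 at left, stem-cell genes at 0.36 and 0.15 and homing genes at -0.45 and -0.33 at right.

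A second comparison set members against the other Flt3-positive cells, which had at least 2 Flt3 UMIs and failed 1 or more limits. There were 168 such cells in library 1 and 492 in library 2, and 38 and 81 were drawn to the depths of 38 and 81 members. Of 2314 measured genes, 26 (1.12%) were at least 1.5-fold higher in members in both libraries and 29 (1.25%) lower, of which Irf8 belongs to the rule. In library 1 alone 12.7% were higher and 16.7% lower, and in library 2 alone 5.4% and 5.53%. Outside the rule, 7 higher genes (Anapc15, Cd63, Commd9, Isg15, Luc7l2, Rab38 and Rps6ka1) and 8 lower genes (Bcl2, Cd48, Cox6a2, Ctss, Hmha1, Il12a, Tyrobp and Xrcc6) kept that size when all other Flt3-positive cells were used, weighted by depth. With cells thinned to 2000 UMIs instead, Cd63 stood at 1.13 and 0.53 on the log2 scale, Anapc15 at 0.98 and 0.33, Commd9 at 0.98 and 0.37, Rps6ka1 at 0.27 and 0.40, and Cd48 at -0.24 and -1.11, each under 1.5-fold in at least 1 library. Il12a turned to 0.15 in library 1 and stood at -1.28 in library 2. Across the 2311 genes outside the rule r between the libraries was 0.02, with 1164 of the same sign. Some list ratios lay apart from 0 in 1 library only. The dendritic and MHC class II list had 1.09 (0.74 to 1.45) in library 1 and -0.15 (-0.38 to 0.07) in library 2. Immediate early genes had 0.11 (-0.37 to 0.60) and -0.53 (-0.85 to -0.21). Genes of G2 and mitosis had -0.51 (-0.79 to -0.24) and 0.05 (-0.07 to 0.18). In library 1, 8 of their 16 measured genes were at least 1.5-fold lower and 0 higher.

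The summed level of stem-cell transcripts was higher in members than in other Flt3-positive cells, most of it from the Ifitm genes. Stem-cell genes outside the rule summed to 6007 CPM in members and 4675 CPM in other Flt3-positive cells of library 1, a log2 ratio of 0.36 (0.20 to 0.52), and to 5143 against 4625 CPM in library 2, 0.15 (0.05 to 0.25). Weighting gave 0.37 and 0.21. Of the 8 measured genes, 3 were at least 1.5-fold higher and 1 lower in library 1, and 1 and 1 in library 2. Their median log2 ratio was 0.33 in library 1 and -0.04 in library 2, where its sign is opposite to that of the sum. Ifitm3 had 1818 against 1150 CPM and 1626 against 1234 CPM, log2 ratios of 0.66 (0.35 to 0.97) and 0.40 (0.21 to 0.59). Ifitm1 had 2796 against 2391 CPM and 2390 against 2296 CPM. Since the limits hold Hlf, Mecom, Procr and Mllt3 to at most 1 UMI in members, the sum leaves those genes out.

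The summed level of homing and adhesion genes was lower in members in both libraries. Of 22 genes 4 were measured, of which 2 were at least 1.5-fold lower in library 1 and 1 in library 2, and none higher. They summed to 701 CPM in members and 955 CPM in other Flt3-positive cells of library 1, -0.45 (-0.86 to -0.03), and to 798 against 1001 CPM in library 2, -0.33 (-0.57 to -0.09). Selplg, the selectin ligand PSGL-1, had 139 against 139 CPM and 144 against 206 CPM. Icam2, an integrin ligand, is not among the 4 measured genes of the list but was at least 1.5-fold lower in both libraries. It had 65.2 against 97.9 CPM and 52.2 against 114 CPM. The hyaluronan receptor gene Cd44 had 16.3 against 73.4 CPM on 2 against 9 UMIs, and 58.3 against 95.1 CPM on 19 against 31 UMIs. Its log2 ratios were -2.17 (-5.42 to 0.10) and -0.71 (-1.61 to 0.16), so both intervals included 0. With weighting the list stood at -0.37 and -0.42, Icam2 at -0.44 and -1.06, and Cd44 at -2.24 and -0.36. With thinning Icam2 turned to 0.13 in library 1 and stood at -0.95 in library 2.

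Lymphoid-primed genes differed by library here. Their log2 ratio was 0.04 (-0.13 to 0.21) in library 1, with 4646 against 4528 CPM and a median of -0.05 over 18 genes, and -0.27 (-0.37 to -0.17) in library 2, with 4599 against 5537 CPM. Cd48 (chromosome 1, 171682009 to 171705258, plus strand, GRCm38) was lower in both. It had 130 CPM in members and 204 CPM in other Flt3-positive cells of library 1, and 126 against 227 CPM in library 2, log2 ratios of -0.65 (-1.65 to 0.32) and -0.85 (-1.44 to -0.28). Mef2c had 204 against 359 CPM and 239 against 384 CPM, -0.82 (-1.59 to -0.08) and -0.68 (-1.11 to -0.26), and with weighting -0.57 and -0.53. The chromatin organizer gene Satb1, a lymphoid-priming factor, had 57.1 against 97.9 CPM and 58.3 against 101 CPM. These rest on 7 against 12 and 19 against 33 UMIs, with log2 ratios of -0.78 (-2.36 to 0.68) and -0.80 (-1.69 to 0.06). With thinning Satb1 stood at -0.12 and -0.52, and Mef2c at -0.16 and -0.58.

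Myeloid genes outside the rule, as a list, had log2 ratios of -0.12 (-0.25 to 0.02) and -0.07 (-0.15 to 0.01) against other Flt3-positive cells. Of 11 measured genes 1 was at least 1.5-fold higher and 4 lower in library 1, and 1 and 1 in library 2, with medians of -0.28 and 0.15, the second opposite in sign to the sum. The genes that follow were picked after their values were seen. Tyrobp, the signalling adaptor of myeloid and NK cells, had 73.4 against 228 CPM in library 1 and 61.4 against 160 CPM in library 2, log2 ratios of -1.64 (-2.91 to -0.51) and -1.38 (-2.20 to -0.61). The lysosomal protease gene Ctss had 48.9 against 97.9 CPM and 64.4 against 138 CPM. Il12a, a subunit of interleukin-12, had 73.4 against 122 CPM and 39.9 against 120 CPM, a direction that thinning turned in library 1. The survival gene Bcl2 had 48.9 against 97.9 CPM and 52.2 against 95.1 CPM. The granule gene Cst7 had 73.4 against 179 CPM in library 1 and 166 against 178 CPM in library 2.

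Genes higher in members included Cd63 (chromosome 10, 128900989 to 128912822, plus strand, GRCm38). It had 253 CPM in members and 106 CPM in other Flt3-positive cells of library 1, and 212 against 126 CPM in library 2, log2 ratios of 1.25 (0.28 to 2.31) and 0.75 (0.17 to 1.34). Relative to matched Flt3-zero cells it was -0.60 and -0.53, on 28 against 42 UMIs in library 1 and 56 against 81 in library 2. Without matching, all members had 249 CPM (169 to 353) and all Flt3-zero cells 299 CPM (275 to 324) in library 1. In library 2 they had 212 CPM (165 to 268) and 283 CPM (260 to 307). These intervals overlapped, and a UMI was seen in 45.0% against 45.8% and 50.6% against 50.3% of cells. Rab38, a small GTPase of lysosome-related organelles, had 155 against 89.7 CPM and 135 against 61.4 CPM. Isg15 had 81.5 against 32.6 CPM and 123 against 79.8 CPM. Adgrl4, an adhesion receptor, had 261 against 114 CPM and 203 against 132 CPM, and with weighting 0.95 and 0.31 on the log2 scale. Prtn3 had 1304 against 1240 CPM in library 1 and 1240 against 893 CPM in library 2.

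Cells that failed only the Dntt limit were the closest neighbours, with every other limit the same and at least 2 Dntt UMIs. Library 2 held 128 of them and library 1 held 43, under the 50 needed for a comparison, so it rests on library 2 alone and has no second library. Neighbours that failed only the granule limit (18 and 49 cells) or only the stem limit (8 and 10 cells) were too few. In library 2, 53 members and 53 Dntt neighbours were matched, and of 1324 genes 4.23% were at least 1.5-fold higher in members and 3.63% lower.

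Without Dntt, cells of library 2 had a lower sum of the lymphoid list. Their sum of the stem list was higher, most of the gap from Ifitm1 and Ifitm3. Lymphoid-primed genes summed to 4680 CPM in members and 5658 CPM in Dntt neighbours, -0.27 (-0.39 to -0.15), homing genes to 803 against 1058 CPM, -0.40 (-0.69 to -0.11), and stem-cell genes outside the rule to 5004 against 3974 CPM, 0.33 (0.20 to 0.46). Cd48 had 114 against 270 CPM, -1.24 (-1.98 to -0.55). Tmsb10, an actin-binding peptide, had 885 against 1323 CPM, -0.58 (-0.85 to -0.31), and Cst7 141 against 261 CPM, -0.88 (-1.56 to -0.23). In the other direction, Cd63 had 205 against 72.0 CPM, 1.51 (0.66 to 2.43), and Prtn3 1232 against 680 CPM, 0.86 (0.57 to 1.15). Ifitm1 and Ifitm3 had log2 ratios of 0.36 (0.17 to 0.56) and 0.42 (0.19 to 0.66). They had 487 against 384 and 359 against 271 UMIs, where the whole stem list had 1097 against 883.

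How the lists varied with the Flt3 count itself was described over cells that met the other limits, drawn to the depths of members. Lymphoid-primed genes stood at 4283, 3956, 4660 and 5466 CPM with 0, 1, 2 and 3 or more Flt3 UMIs in library 1, and at 4504, 4439, 4547 and 4984 CPM in library 2. Cells with 3 or 4 Flt3 UMIs thus had the highest level in both, but there were 9 of them in each library and their intervals, 4567 to 6491 and 4309 to 5734 CPM, overlapped those with 2 UMIs. Stem-cell genes had 6195, 5229, 5810 and 7022 CPM in library 1, and 6076, 5957, 5115 and 5341 CPM in library 2, with no shared order. Megakaryocyte and erythroid genes had 467, 288, 337 and 505 CPM in library 1 and 449, 304, 303 and 383 CPM in library 2, again with no steady order.

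**Figure D4:**
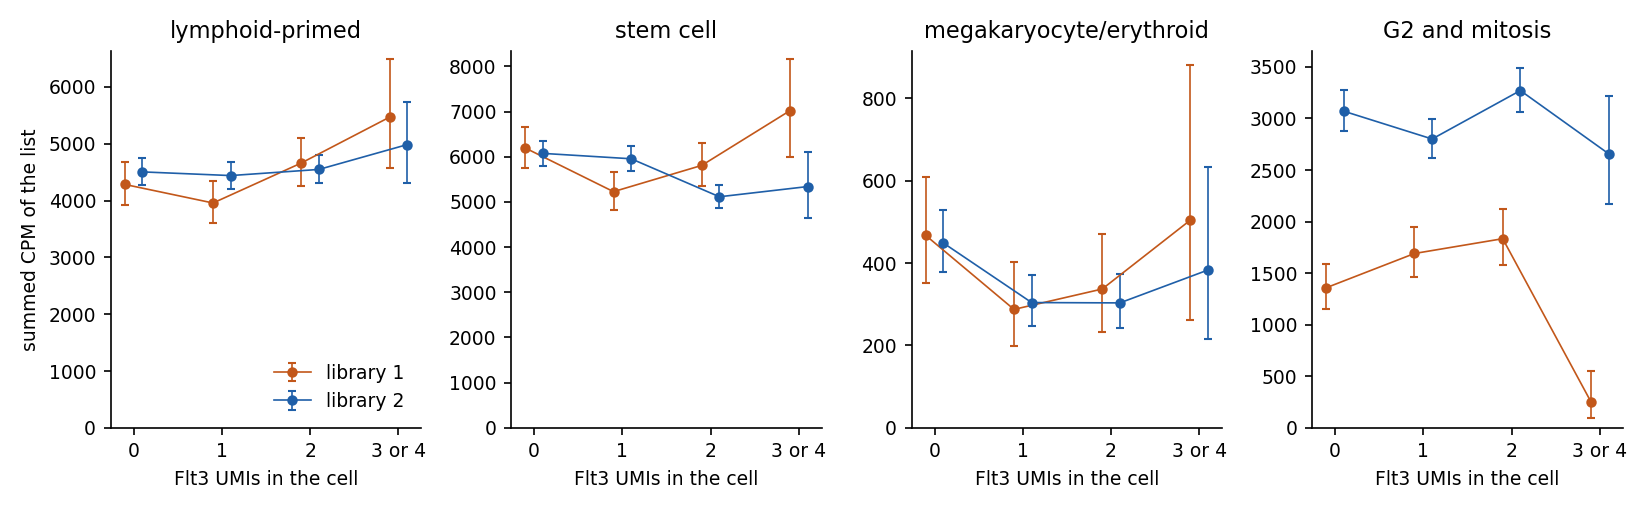
Summed CPM of 4 gene lists (vertical axes, from 0) by the number of Flt3 UMIs in the cell (horizontal axes), among cells within the other limits at matched depth, by library, with 95% Poisson intervals. The lymphoid-primed list has its highest point at 3 or 4 Flt3 UMIs in both libraries, 5466 and 4984 CPM, on 9 cells each.

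Most members carried transcripts of DNA replication. With each cell thinned to 2000 UMIs and shallower cells left out (6 and 10 members, 318 and 197 Flt3-zero cells), 76.5% of 34 members of library 1 had at least 5 UMIs of 28 S-phase genes, against 78.0% of 463 Flt3-zero cells. In library 2 the shares were 85.9% of 71 members and 81.4% of 467 Flt3-zero cells. For 26 genes of G2 and mitosis, 5 or more UMIs were found in 20.6% of members (8.70 to 37.9) against 21.6% of Flt3-zero cells in library 1, and in 43.7% (31.9 to 56.0) against 25.3% (21.4 to 29.5) in library 2. All kept cells had 31.2% and 45.7%.

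That share did not show the gap of library 2 between cells of matched depth. There, without thinning, 25.6% of 39 members and 33.3% of 39 Flt3-zero cells of library 1 reached 5 UMIs of these genes, and 42.5% of 73 and 46.6% of 73 in library 2. Birc5, the survivin gene of the mitotic passenger complex, had 146 against 182 CPM in library 1 and 375 against 381 CPM in library 2. Top2a, a topoisomerase of dividing cells, had 241 against 355 CPM and 386 against 404 CPM. The summed level of the list went the other way in library 2, with 2977 CPM in members and 2673 CPM in Flt3-zero cells, 0.16 (0.01 to 0.30), and 3 of 12 measured genes at least 1.5-fold higher and none lower. In library 1 it was 1469 against 1358 CPM, 0.11 (-0.21 to 0.43), with 3 higher and 2 lower. Unthinned, 2 members of library 1 and 1 of library 2 had no UMI of an S-phase gene.

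**Figure D5:**
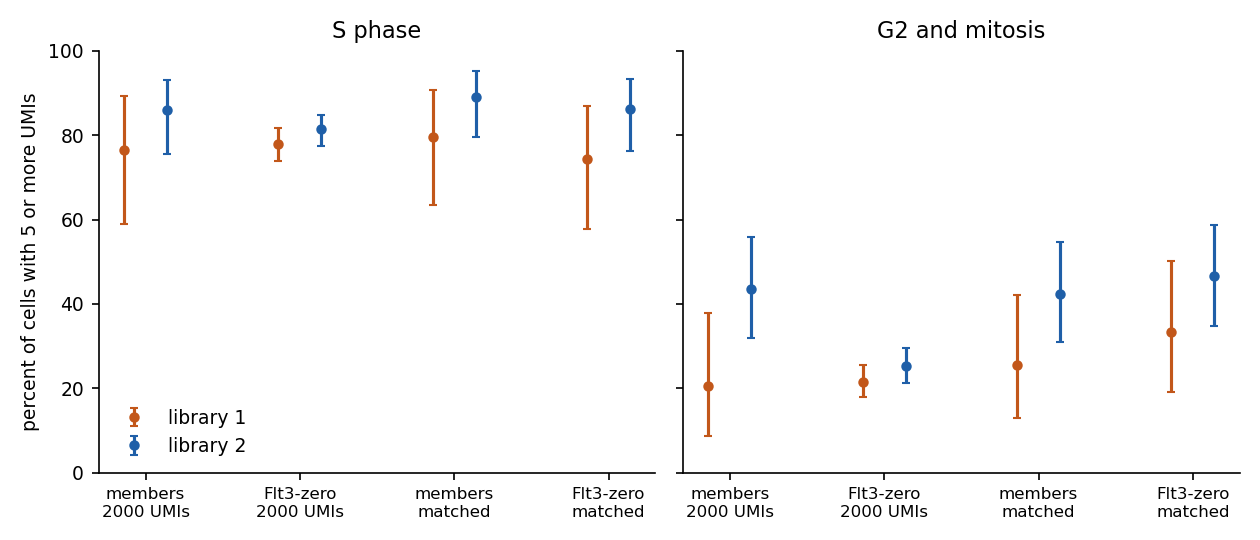
Percent of cells (vertical axis) that reached 5 UMIs of S-phase genes (left) or of genes of G2 and mitosis (right), in members and Flt3-zero cells, after thinning to 2000 UMIs and in cells matched for depth without thinning, by library, with Clopper-Pearson 95% intervals. For G2 and mitosis in library 2, members had the larger share after thinning (43.7% and 25.3%) and the smaller one with matching (42.5% and 46.6%).

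Members of both libraries were last set against each other, 32 against 32 cells at matched depth. Of 620 measured genes 5.97% were at least 1.5-fold higher in library 1 and 10.5% lower. The list of G2 and mitosis genes was lower in library 1, with 1629 CPM against 2613 CPM in library 2, -0.68 (-0.96 to -0.41). All kept cells had 2039 CPM in library 1 and 3361 CPM in library 2. Lymphoid-primed genes were at 4555 against 4869 CPM, -0.10 (-0.27 to 0.08), and stem-cell genes at 5951 against 5379 CPM, 0.15 (-0.02 to 0.31).

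Several large library differences were also present between the other kept cells. Across the 620 genes the log2 ratio in members and that in other kept cells had r = 0.73, where both come from the same 2 libraries. Ppia, a peptidyl-prolyl isomerase, had 134 CPM in members of library 1 and 913 CPM in those of library 2, -2.77 (-3.65 to -1.98), and -2.78 in other kept cells. The ribosomal protein gene Rps6 had 349 against 2103 CPM, -2.59, and -2.22 in other kept cells, while ribosomal protein genes as a whole were at 0.15 (0.13 to 0.17). Such genes have near-identical copies, so how reads were shared among copies bears on their counts and was not tested.

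Some genes with large library differences in members did not follow the other cells. Vamp8 had a log2 ratio of -0.93 in members and 0.02 in other kept cells, Napsa -1.40 and -0.16, and Gm42418 -1.93 and -0.21. Ddx39b had -1.37 and -0.34. Cd34, the sialomucin used in the sort, was another such gene. It had 671 CPM in members of library 1 and 322 CPM in those of library 2, a log2 ratio of 1.06 (0.47 to 1.67), and -0.16 in other kept cells. Over all members it was at 650 CPM (516 to 808) in library 1 and 405 CPM (339 to 480) in library 2, and it had a UMI in 34 of 40 and 62 of 81. Cd74 was higher in members of library 1, 492 against 170 CPM, and the MHC class II-rich member named above supplied 47 of the 62 Cd74 UMIs of all 40 members there. In other kept cells Cd74 had a log2 ratio of 1.65, beside 1.53 in members, and 41 kept cells of library 1 and 2 of library 2 had at least 20 MHC class II UMIs. What part those cells and the libraries themselves had in these differences was not tested, and genotype and library cannot be told apart.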

How the data were processed

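The data were 1 matrix of single-cell RNA of sorted bone-marrow progenitors, with 27998 genes and 7884 barcodes of 2 libraries. The authors deposited UMI counts (unit: count). Cell Ranger 1.1 and the build mm10 are credited to the submitters' processing notes, and the cell-calling settings were not given in the sources used here. Libraries were told apart by barcode suffix. Barcodes with at least 500 genes and under 10% mitochondrial UMIs were kept. The members, gene lists and comparisons were chosen with earlier results of these data known, and the comparison with other Flt3-positive cells was added after the data were seen.

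Reference cells were drawn in bins of 0.25 log2 UMIs per cell, the UMIs of each group were added up by library and turned into CPM, and ratios carry exact conditional intervals. A 1.5-fold size rule on genes with at least 50 UMIs stood in for a test, because each genotype had 1 library. Named genes were, of each list, those with the most UMIs or the largest ratio, and the 12 highest and 12 lowest in library 2 by the bound nearest 1. Genes named against other Flt3-positive cells were picked from those past 1.5-fold in both libraries and from the lists, after their values were seen. Where a symbol had several identifiers, the one with the most UMIs was used. No doublets were removed. Gene positions came from GENCODE M21. The procedure was tested on simulated data that held counting error only, with folds set in genes with many UMIs. Variation between cells or animals was not simulated. Alternatives changed the barcode filter, the limits, the matching, the draw, the scaling (edgeR 4.0.16 for TMM factors only), the gene minimum and the fold. Python 3.11.15, numpy 2.4.6, scipy 1.17.1, pandas 2.3.3 and R 4.3.3 were used.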

Additional observations from a re-analysis of the deposited data

Results flagged for a closer look

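Immediate early genes, the AP-1 and other factors that respond within minutes to stimulation or handling, pointed in opposite directions in the libraries. Members stood above Flt3-zero cells in library 1, with 670 against 424 CPM and a log2 ratio of 0.66 (0.13 to 1.21), and below them in library 2, with 443 against 585 CPM and -0.40 (-0.76 to -0.05). Fos had 94.5 against 34.6 CPM in library 1 and 45.5 against 98.2 CPM in library 2, on 11, 4, 12 and 26 UMIs in that order. With all Flt3-zero cells weighted by depth the list had 0.23 and -0.22. The difference between the libraries was not tested.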

How the results depend on the processing

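The number of genes at least 1.5-fold apart in both libraries depended on the settings. Against Flt3-zero cells, 11 genes were higher and 13 lower. With at most 1 UMI of Irf8 and Car2 the numbers were 22 and 34, with narrower bins 19 and 25, and over the UMI range without bins 124 and 173. Thinning to 2000 UMIs gave 95 and 159, leaving out MHC class II-high cells 22 and 30, a gene minimum of 200 UMIs 0 and 0, a minimum of 20 UMIs 118 and 109, and a 2-fold size 0 and 3. The stricter barcode filter gave 25 lower, at least 3 Flt3 UMIs 45 lower and weighting 6 lower. Reading 1 library at a time gave 92 to 241 higher and 120 to 315 lower. Against other Flt3-positive cells, 26 were higher and 29 lower, with thinning 61 and 121, and with weighting 15 and 17.

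List ratios (log2) against Flt3-zero cells moved as follows. The dendritic and MHC class II list of library 1 turned to 1.21 with the stricter filter, 0.62 with at least 3 Flt3 UMIs, 0.026 over the UMI range, 0.31 with another draw and 1.12 without barcodes found in both libraries. Immediate early genes turned to -0.011 in library 1 over the UMI range, and to 0.077 in library 2 with at most 1 UMI of Irf8 and Car2. G2 and mitosis genes of library 2 turned to -0.15 with at least 3 Flt3 UMIs and to -0.10 with narrow bins. Megakaryocyte and erythroid genes stood at 0.81 with at least 3 Flt3 UMIs and at -0.97 with narrow bins in library 1. In library 2 they stood at 0.057 with the stricter filter, 0.26 with at least 3 Flt3 UMIs, 0.11 with another draw, -0.079 with thinning and -0.17 with weighting. Stem-cell genes stood at 0.26 in library 1 with at least 3 Flt3 UMIs, and in library 2 at -0.12 with the stricter filter, -0.066 with at least 3 Flt3 UMIs, -0.11 with narrow bins and -0.13 with weighting.

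Against other Flt3-positive cells, the dendritic list of library 1 turned from 1.09 to -0.13 without MHC class II-high cells. With thinning, immediate early genes of library 2 moved from -0.53 to 0.026 and lymphoid-primed genes of library 2 from -0.27 to -0.086. Between members of both libraries, G2 and mitosis genes were at -1.06 without matching. The share of kept cells that are members, library 1, was 0.277% with at least 3 Flt3 UMIs and 0.799% with at most 1 UMI of Irf8 and Car2. The share of kept cells that are members, library 2, was 0.197% and 0.963% in these settings, and 1.12% with thinning. With minima of 3 and 10 UMIs, 57.7% and 23.9% of thinned members of library 2 carried G2 and mitosis transcripts, and with a minimum of 10, 32.4% of library 1 and 42.3% of library 2 carried S-phase transcripts. The cause of these shifts was not tested. Of 571 list values recomputed, 517 stayed inside the counting interval of the reported value. Weighting, leaving out shared barcodes or MHC class II-high cells and every alternative for other Flt3-positive cells were chosen after seeing the data. Depth limits genes with few UMIs, Flt3 included. No paired analysis was possible because the labels give no replicate numbers and each genotype had 1 library.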
